A study of Homo sapiens with 8 samples.

Results

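OVCAR3 is a human ovarian cancer cell line, and 2 of its experimental states are compared here by RNA-seq: cells in which endogenous RACK1 was replaced by an HA-tagged wild-type copy (RACK1-WT) and parental cells given a control siRNA (siControl). The members are the 4 libraries, of 8 in the series, that carry the labels RACK1-WT or siControl, with 2 libraries in each group. RACK1-WT cells hold a Dox-inducible shRNA against RACK1, from a puromycin-selected lentivirus, and a Dox-inducible RACK1 cDNA, from a G418-selected lentivirus, and were given 1 µg/ml Dox for 48 h. siControl cells hold neither construct, received no Dox in the described protocol and were transfected with 30 nM siRNA for 48 h. The other 4 libraries are cells with the RACK1 copy mutated at its ADP-ribosylation sites (RACK1-Mut) and cells with a TARG1 siRNA (siTARG1), and RACK1-Mut against siTARG1 is given beside the results because it crosses the same pair of experiments with no library in common. RACK1 knockdown, the RACK1 copy, Dox, the derivation of the line under selection and siRNA transfection all change together between RACK1-WT and siControl, and their shares in any value below cannot be told apart. The authors state that sequencing experiments were repeated, at least 2 times, on independent biological samples. The labels do not say whether these replicates were separate cultures, nor whether a line is 1 clone. The p-values measure only the spread between replicate libraries, pooled over the 8 libraries.

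RACK1 is a scaffold protein on the head of the small (40S) ribosomal subunit. It docks kinases and quality-control factors at the ribosome, and it is needed for the assembly of stress granules, the cytoplasmic bodies that store stalled mRNAs. OVCAR3 cells come from a high-grade serous carcinoma, a tumour of secretory (PAX8-positive) epithelium, and such lines carry many chromosome gains and losses.

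The 2 states differed across most of the transcriptome. Of 14024 genes tested, 4473 (31.9%) were higher and 4408 (31.4%) lower in RACK1-WT than in siControl at an adjusted p below 0.05, so that 63.3% of all genes were called, the libraries of the groups did not overlap in 83.4%, and the median absolute difference was 0.40 on the log2 scale. More than 2-fold, 1671 genes (11.9%) were higher and 810 (5.78%) lower. Among genes with a mean of at least 10 CPM (exon counts scaled to the TMM-adjusted library size) in the higher group, these numbers were 695 and 359. Replicates of a group had Pearson correlations of 0.9954 and 0.9957 across genes on a log2 CPM scale, and libraries of different groups 0.9400 to 0.9407, while the RACK1-WT and RACK1-Mut libraries correlated at 0.9954 to 0.9959. In RACK1-Mut against siTARG1, 66.0% of genes were called. Called the same way in both comparisons were 6153 genes, which are 69.3% of the RACK1-WT calls and 66.4% of the RACK1-Mut calls, and 647 genes (4.61%) were called in opposite directions. Over both comparisons the 4 RACK1 libraries lay wholly above or below the 4 siRNA libraries in 53.4% of genes. Of the 2481 calls past 2-fold, 2055 (82.8%) were called the same way for RACK1-Mut.

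**Figure D1:**
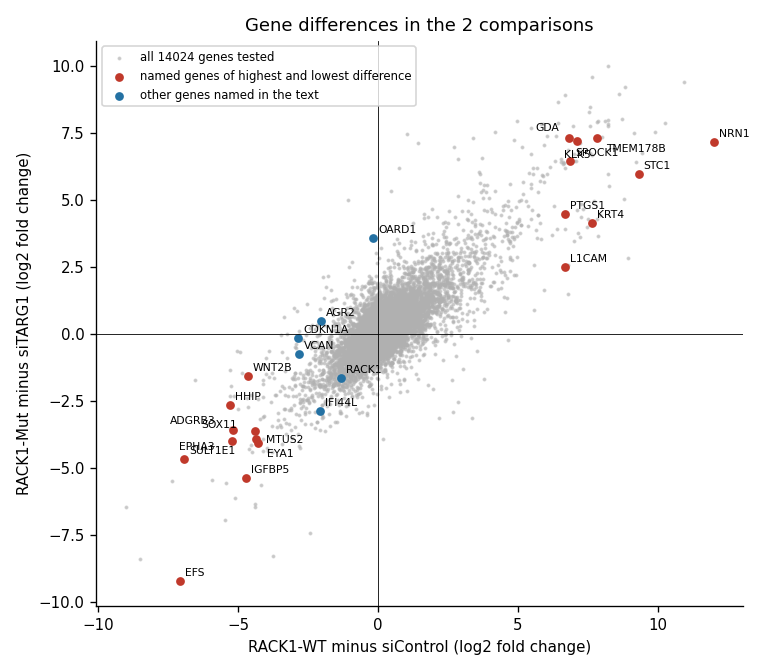
Each point is 1 gene, at its log2 fold change of RACK1-WT minus siControl (x) and of RACK1-Mut minus siTARG1 (y), 2 libraries in each group. The named genes of highest and lowest difference (red) have the same sign on both axes, whereas CDKN1A and AGR2 (blue) are at -2.86 and -2.03 on the x axis and at -0.16 and 0.48 on the y axis, and OARD1, the gene of TARG1, is at -0.17 on the x axis and at 3.58 on the y axis.

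Libraries held 30989049 to 40702750 exon counts. Exons took 51.42 to 56.17% of all alignments in RACK1-WT and 38.38 to 44.48% in siControl, and the 100 rows with the most counts took 17.68 to 18.01% and 19.7 to 19.86% of exon counts. The part of these values in the results was not tested. Genes of low level were more often higher in RACK1-WT. In the 10% of genes with the lowest mean CPM, 33.3% were more than 2-fold higher and 16% more than 2-fold lower. In the 10% with the highest these shares were 4.34% and 3.01%. These 4 shares count all genes past 2-fold, called or not. Defining markers of ovarian epithelial cells were present in all 4 libraries. PAX8, the lineage factor of secretory epithelium, had 289 and 307 CPM in siControl and 433 and 439 CPM in RACK1-WT, and EPCAM, an epithelial adhesion protein, had 399 and 425 CPM and 339 and 324 CPM. Of 20 leukocyte markers only 9 passed the low-count filter, and CD3E, MS4A1, ITGAM, CD163 and NKG7 had 0 reads in all 4 libraries. Of these 9, 6 were higher in RACK1-WT and 1 lower (77.8% called, against 63.3% of all genes), 5 of them more than 2-fold higher. Their median of 2.19 was the highest of the 35 gene lists. That rank covers only members that passed the filter, which a gene can pass through 1 group alone. HLA-DRA, an MHC class II chain, had 0.803 and 0.719 CPM in siControl and 5.72 and 5.84 CPM in RACK1-WT, and CD14, a monocyte receptor, had 0.451 and 0.458 CPM against 1.97 and 2.19 CPM. In RACK1-Mut against siTARG1, 5 were higher and 1 lower (median 0.89). The summed leukocyte marker level was 76.3 and 84.3 CPM in siControl and 125 and 135 CPM in RACK1-WT, of which CD74, an MHC class II chaperone that epithelial cells can also make, gave 68.8 and 74.0 CPM and 109 and 119 CPM. PTPRC, the pan-leukocyte surface marker CD45, was under 1 CPM in all 4 libraries. The part of other cell types in the results was not tested.

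The RACK1 gene itself (ENSG00000204628, chr5:180663897-180675096, minus strand, GRCh37) was counted by region, which separates the endogenous transcript from a cDNA copy in part, because the copy was made from the coding sequence. Over all exons RACK1 had 4622 and 4516 CPM in siControl and 1762 and 1898 CPM in RACK1-WT, a log2 difference of -1.32 (SE 0.08, adjusted p = 4.0e-09). The coding sequence held 172109 and 127327 reads in siControl and 54821 and 66034 reads in RACK1-WT, and its level in RACK1-WT was 42.7% of that in siControl. Reads on the 40 bases of 3′ UTR in the counted model fell further, from 11709 and 10546 to 597 and 551, which is 5.43% of the siControl level. Reads on the 5′ UTR were 451 and 225 against 26 and 35, or 9.72%. The ratio of 3′ UTR to coding reads therefore differed by -2.98 on the log2 scale (SE 0.19, limma adjusted p = 0.0035), the lowest value of the 10081 genes with enough reads for this test, of which 0.208% were called. RACK1-Mut showed the same pattern, with 765 and 681 3′ UTR reads against 12286 and 13394 in siTARG1. Without RACK1-WT replicate 2 the ratio was -2.78 with an adjusted p of 0.06.

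**Figure D2:**
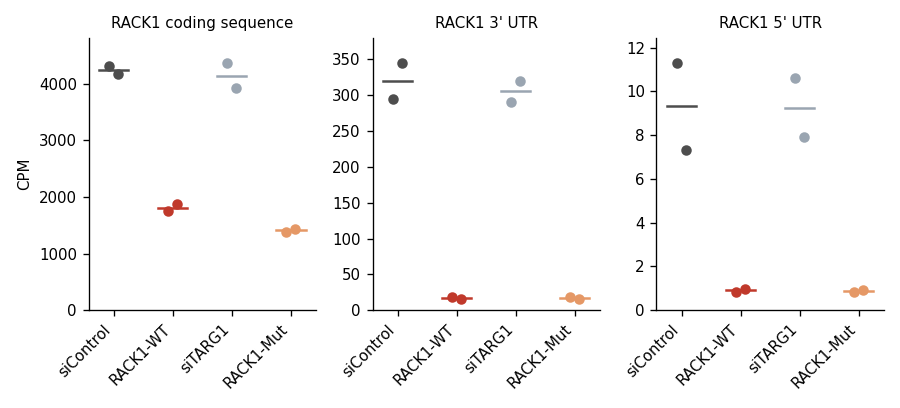
CPM (y) of the RACK1 coding sequence, 3′ UTR and 5′ UTR in each of the 8 libraries, as points with the group mean as a line. RACK1-WT keeps 42.7% of the siControl level in the RACK1 coding sequence 5.43% in the 3′ UTR and 9.72% in the 5′ UTR, and in all 3 regions both RACK1 groups lie below both siRNA groups.

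Among the genes with the highest difference, of those called with separate libraries and at least 10 CPM in RACK1-WT, were secreted, surface and epithelial genes. PTGS1, which encodes the prostaglandin-forming enzyme COX-1, had 3.79 and 3.11 CPM in siControl and 352 and 363 CPM in RACK1-WT, a 104-fold difference (log2 6.68, SE 0.11). GDA, guanine deaminase, went from 1.56 and 1.73 CPM to 180 and 190 CPM (112-fold). KLK5, a secreted serine protease of the kallikrein family, had 0.953 and 1.14 CPM against 144 and 146 CPM (138-fold). L1CAM, a cell adhesion molecule of neurons and of invasive carcinomas, had 0.627 and 0.621 CPM against 64.3 and 65.7 CPM (104-fold). These 4 genes had under 4 CPM in siControl and more than 60 CPM in RACK1-WT, with replicates that differed far less than the groups. SPOCK1, an extracellular proteoglycan, was 117-fold higher, KRT4, a keratin of wet stratified epithelia, 209-fold, and TMEM178B, a membrane protein, 223-fold. NRN1, a GPI-anchored neurite growth protein, had 0 reads in both siControl libraries and 410 and 485 reads in RACK1-WT, so that it was at least 316-fold higher, taking 3 reads over the siControl group as the limit. STC1, the secreted hormone stanniocalcin-1, had 1 and 0 reads against 350 and 386, a ratio of 779 with an exact 95% interval of 139 to 30815 that covers counting error only. All 9 were also called higher in RACK1-Mut than in siTARG1.

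Of the 10 genes with the lowest difference, EPHA3, a receptor tyrosine kinase for ephrins, had 101 CPM in both siControl libraries and 3.05 and 2.42 CPM in RACK1-WT (36.9-fold lower, log2 -5.21, SE 0.11). SOX11, a transcription factor of progenitor cells, had 88.2 and 105 CPM against 4.26 and 4.84 CPM (21.2-fold lower), and EYA1, a transcriptional coactivator of organ formation, 17.0 and 20.7 CPM against 1.14 and 0.798 CPM. IGFBP5, a secreted protein that binds insulin-like growth factors, had 48.6 and 53.2 CPM against 2.03 and 1.79 CPM (26.6-fold lower). In each of these genes both RACK1-WT libraries lay far below both siControl libraries. EFS, a docking protein of the CAS family, was 150-fold lower, and SULT1E1, the sulfotransferase that inactivates oestrogen, 124-fold. HHIP, an inhibitor of hedgehog ligands, was 39.4-fold lower, ADGRB3, an adhesion G protein-coupled receptor, 36.4-fold, WNT2B, a Wnt ligand, 25.2-fold and MTUS2, a microtubule-associated protein, 20.9-fold. All 10 were called lower in RACK1-Mut than in siTARG1 as well. WNT2B also differed between the siRNA groups, at 15.4 and 14.3 CPM in siControl and a mean of 2.30 CPM in siTARG1, so that its difference was -4.65 in the first comparison and -1.58 in the second.

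In some genes siControl stood apart from the other 3 groups. CDKN1A, the p21 inhibitor of cyclin-dependent kinases, had 29.9 and 27.3 CPM in siControl and 3.72 and 4.13 CPM in RACK1-WT (7.28-fold lower), but siTARG1 was already at a mean of 5.16 CPM and RACK1-Mut at 4.63 CPM (log2 -0.16, adjusted p = 0.27). VCAN, the matrix proteoglycan versican, fell from 1270 and 1225 CPM to 176 and 177 CPM, with siTARG1 at 300 CPM. AGR2, a protein disulfide isomerase of secretory epithelia, had 54.2 and 51.5 CPM against 13.0 and 12.9 CPM, with siTARG1 at 11.4 CPM. ME1, which makes NADPH from malate, had 210 and 209 CPM against 84.3 and 76.9 CPM, with siTARG1 at 74.0 CPM. For these 4 genes the siTARG1 level was nearer to RACK1-WT than to siControl, so the siControl libraries also stood apart from siTARG1 in them. The test of the difference between the comparisons called 4550 of 14024 genes (32.4%).

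Epithelial genes differed in both directions. Of 35 tested genes of ovarian carcinoma and simple epithelium, 20 were higher and 9 lower (82.9% called, against 63.3% of all genes), with a median of 0.42. MSLN, the surface antigen mesothelin, rose from 23.4 and 21.4 CPM to 161 and 175 CPM (log2 2.90, SE 0.09). KRT7, a keratin of simple glandular epithelium, had 173 and 145 CPM against 528 and 576 CPM, and FOLR1, a folate receptor, 7.22 and 8.37 CPM against 27.9 and 32.7 CPM. MUC1, a membrane mucin, was 6.64-fold higher. MUC16, the mucin that carries the CA125 antigen, moved the other way, with 492 and 413 CPM in siControl and 224 and 129 CPM in RACK1-WT (log2 -1.36, SE 0.21), and ELF3, an epithelial transcription factor, was also lower at 263 and 230 CPM against 133 and 142 CPM. CDH1, E-cadherin, was higher in RACK1-WT at 178 and 180 CPM against 105 CPM in both siControl libraries, whereas siTARG1 had 297 CPM and RACK1-Mut 178 CPM, a difference of the opposite sign (log2 -0.74).

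Of 25 genes of stratified epithelium, 17 passed the low-count filter, and 14 of these were higher and 1 lower (31.9% and 31.4% of all genes), with 15 and 1 in the second comparison. KRT13, KRT14, DSG3 and S100A7 were among the 8 that did not pass. The tested members had a median of 1.83, and the summed level of all 25 genes was 470 and 480 CPM against 197 and 188 CPM. KRT5, the basal-layer keratin, had 0.125 and 0.196 CPM in siControl and 11.8 and 9.43 CPM in RACK1-WT (65.9-fold). KRT6A, a keratin of activated epithelium whose reads cannot be fully told from those of KRT6B and KRT6C, had 1.93 and 1.44 CPM against 9.69 and 9.37 CPM, and KRT81, a hair-type keratin, was 28.3-fold higher. LAMA3 and LAMB3, chains of the basement membrane laminin-332, were 5.14-fold and 5.46-fold higher. TP63, the master regulator of stratified epithelium, was the exception, with 0.752 and 0.916 CPM in siControl and 0.286 and 0.456 CPM in RACK1-WT (adjusted p = 0.01). IVL, SPRR1A, SPRR1B and SPRR3, genes of the cornified layer, had 0 reads in all 4 libraries. Of the 16 tested keratin genes on chromosome 12, 14 were higher and 1 was lower, KRT18 at 1323 and 1260 CPM against 962 and 1008 CPM. The summed level of the 16 overlapped between the groups, with 2727 and 2570 CPM in siControl and 2637 and 2755 CPM in RACK1-WT. It was 1326 and 1299 CPM in siTARG1 and 2743 and 2588 CPM in RACK1-Mut. The kallikrein proteases encoded together on chromosome 19 were all higher: 6 of 6, with a summed level of 1.98 and 2.29 CPM in siControl, 181 and 185 CPM in RACK1-WT, 2.08 and 2.11 CPM in siTARG1 and 182 and 177 CPM in RACK1-Mut. The keratin and kallikrein families were picked after their values were seen.

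Mesenchymal genes were mixed, with 7 of 22 higher and 8 lower (68.2% called, close to the 63.3% of all genes, median -0.06), while their summed level was 790 and 797 CPM in siControl and 361 and 349 CPM in RACK1-WT. The abundant members were lower: VIM, the intermediate filament vimentin, had 210 CPM in both siControl libraries and 77.9 and 79.7 CPM in RACK1-WT, CDH2, N-cadherin, had 338 and 353 CPM against 142 and 133 CPM, FN1, fibronectin, had 105 and 99.0 CPM against 22.0 and 20.1 CPM, and TNC, tenascin C, had 66.3 and 63.1 CPM against 18.8 and 18.1 CPM. TWIST1, a transcription factor of mesenchyme, was 10.6-fold higher at 5.15 and 7.04 CPM, and FBN1 and COL5A2, matrix fibre proteins, were 5.62-fold and 4.03-fold higher. Adhesion and matrix genes of epithelium leaned upwards (23 of 38 higher, 10 lower, 86.8% called, median 0.52), led after L1CAM by ITGB8, the integrin chain that activates latent TGF-beta, at 185 and 202 CPM in siControl and 1138 and 1105 CPM in RACK1-WT. LTBP1, which holds TGF-beta in the matrix, had 29.4 and 30.0 CPM against 371 and 345 CPM (log2 3.59), and SMAD7, an inhibitory target of that pathway, was 5.09-fold higher, while BAMBI, a decoy receptor, was 5.08-fold lower. Of 29 TGF-beta ligands and targets tested, 17 were higher and 6 lower (79.3% called, against 63.3% of all genes), with 18 and 5 in the second comparison.

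Interferon-stimulated genes were the list with the lowest median. These genes are switched on by the factor ISGF3 at a DNA element that joins copies of the letters GAAA. Among 55 tested members 38 were lower and 11 higher (89.1% called, against 63.3% of all genes), 25 of them more than 2-fold lower, with a median of -0.87. The summed level of all 56 members with a row was 9889 and 8830 CPM in siControl and 5251 and 5281 CPM in RACK1-WT. In RACK1-Mut against siTARG1, 46 were lower and 2 higher (median -1.02), and 37 members were lower in both comparisons. IFI44L, an antiviral effector, had 546 and 494 CPM in siControl and 126 and 119 CPM in RACK1-WT (4.26-fold lower, log2 -2.09, SE 0.08). IFIT1, which binds foreign capped RNA, had 567 and 488 CPM against 139 and 117 CPM (4.12-fold lower), and CMPK2, a mitochondrial nucleotide kinase, 24.1 and 20.6 CPM against 6.01 and 5.30 CPM. GBP2, a guanylate-binding protein, had 267 and 274 CPM against 73.9 and 79.9 CPM, and MX1, a dynamin-like antiviral GTPase, 385 and 290 CPM against 129 and 122 CPM. Of the transcription factors of the pathway, STAT2 had 184 and 159 CPM against 100 and 103 CPM, and IRF7 had 67.6 and 58.7 CPM against 26.5 and 29.4 CPM. ISG15, IRF9 and IFIH1 were not analysed here.

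Among the 11 members that were higher were genes of antigen processing and presentation (HLA-B, HLA-C, HLA-E, HLA-F, PSMB8 and PSMB9), the chemokines CXCL10 and CXCL11, UBA7 and IFI27. HLA-B and HLA-C, class I histocompatibility chains whose reads may be shared between paralogs, differed by 0.89 and 0.78 on the log2 scale, UBA7, an ISG15-activating enzyme, by 0.64, PSMB9, an immunoproteasome subunit, by 0.52 and CXCL11, a chemokine of low level, by 2.12. HLA-B and HLA-C were not higher in RACK1-Mut than in siTARG1, with log2 values of -0.21 and -0.02, and IFI27, an interferon-inducible mitochondrial protein, differed by 0.56 in the first comparison and by -0.92 in the second.

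**Figure D3:**
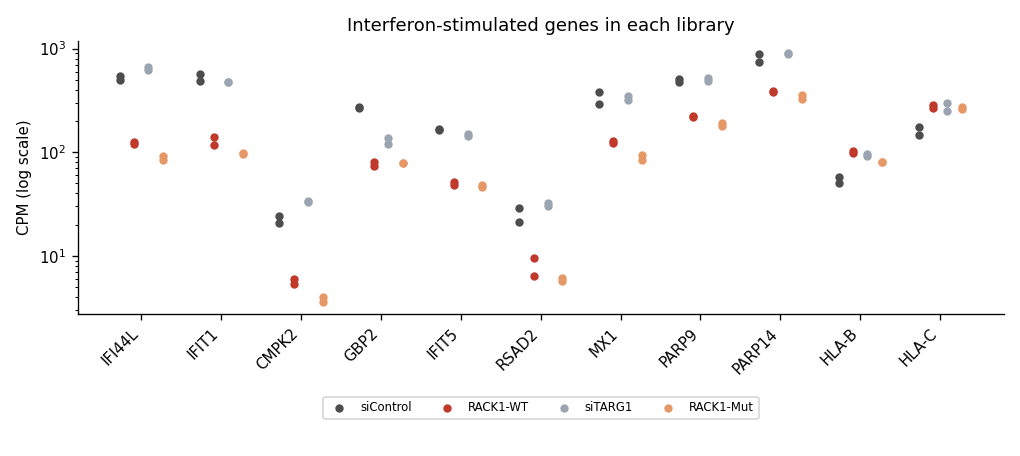
CPM on a log axis (y) of 11 interferon-stimulated genes (x) in each of the 8 libraries, coloured by group. For IFI44L through PARP14 both RACK1 groups lie below both siRNA groups, and for HLA-B and HLA-C siControl lies below the other 3 groups.

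The response element can be read in the promoters of these genes. The letters GAAA, then any 2 bases, then GAAA, on either strand, occurred in 29 of the 42 list members with a RefSeq promoter entry (69%), in 21 of the 29 of them that were lower in RACK1-WT (72.4%), and in 3.57% of all 35116 promoter entries of 300 bases (250 before to 50 after the gene start). A match describes the letters only. The stretches below are 30 bases each from 5 of the members that were lower, chosen to show the element at different distances from the gene start. They are from RefSeq on GRCh38.p14, plus strand, and capitals mark the match.
IFI44L, chr1:78620365-78620394: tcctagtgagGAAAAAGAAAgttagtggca
IFIT1, chr10:89392510-89392539: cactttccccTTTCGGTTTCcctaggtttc
IFIT3, chr10:89327865-89327894: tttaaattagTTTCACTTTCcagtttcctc
IFIT5, chr10:89414513-89414542: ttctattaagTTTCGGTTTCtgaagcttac
RSAD2, chr2:6877622-6877651: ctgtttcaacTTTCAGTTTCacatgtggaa
In the 4 lower lines the element lies on the opposite strand, where it reads GAAA first. IFIT1 and IFIT5 carry the same 10 letters, 103 and 45 bases before the gene start, and differed by -2.04 and -1.73 on the log2 scale. IFIT3 and RSAD2 differed by -1.41 and -1.68.

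ADP-ribosylation genes overlap with this list. In all, 9 of 26 tested genes were higher and 8 lower (65.4% called, close to the 63.3% of all genes), and in the second comparison 9 were higher and 15 lower. PARP14, the transferase that modifies RACK1, had 890 and 744 CPM in siControl and 382 and 393 CPM in RACK1-WT (log2 -1.08, SE 0.08), PARP12 had 76.4 and 76.5 CPM against 26.8 and 25.7 CPM, PARP9 had 512 and 481 CPM against 222 and 218 CPM, and ZC3HAV1, the antiviral zinc finger protein of the PARP family, had 161 and 167 CPM against 87.2 and 89.9 CPM. The DNA repair enzyme PARP2 moved up from 8.88 and 10.3 CPM to 31.2 and 32.5 CPM, and NMNAT2 and NMNAT3, which make NAD, were 7.82-fold and 5.33-fold higher. OARD1, which encodes the eraser TARG1, had 48.5 and 52.0 CPM against 46.2 and 43.0 CPM (log2 -0.17, adjusted p = 0.13).

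G3BP1, the nucleator of stress granules, had 489 and 508 CPM in siControl and 440 and 417 CPM in RACK1-WT (log2 -0.22, adjusted p = 0.013), and AKT1, a growth-signalling kinase, 200 and 194 CPM against 168 and 172 CPM (log2 -0.22, adjusted p = 0.012). EIF3B, a subunit of the translation initiation factor eIF3, had 137 CPM in both siControl libraries and 122 and 120 CPM in RACK1-WT (log2 -0.18, adjusted p = 0.024). Leaving out single libraries took the adjusted p of these 3 genes up to 0.12, 0.093 and 0.13. RPS6 and RPL24, ribosomal proteins of the small and the large subunit, differed by -0.17 and -0.08 (adjusted p = 0.062 and 0.45). Among stress granule proteins 9 of 30 were higher and 13 lower (73.3% called, and 4 and 14 in the second comparison), with DDX6, a decapping helicase, at 356 and 377 CPM against 181 and 172 CPM. In the insulin receptor and AKT pathway 13 of 39 were higher and 19 lower (82.1% called, against 63.3% of all genes, and 16 and 17). The receptor INSR (26.5 and 25.5 CPM against 62.1 and 71.2 CPM), its adaptor IRS2 (26.2 and 28.6 CPM against 93.5 and 120 CPM) and the kinase subunit PIK3R1 (36.9 and 39.2 CPM against 74.1 and 74.9 CPM) were higher, and the binding proteins IGFBP3 and IGFBP5 were 2.99-fold and 26.6-fold lower.

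RNA interference machinery processes the shRNA in one state and loads the siRNA in the other. It was lower in 12 of 17 genes and higher in 2 (82.4% called, median -0.36). Of all genes tested, 63.3% were called and 31.4% were lower. TNRC6A, a silencing scaffold, had 172 and 174 CPM in siControl and 79.1 and 73.0 CPM in RACK1-WT, and DICER1, which cuts precursors, had 253 and 256 CPM against 141 and 133 CPM. AGO2, the slicing Argonaute, was the main exception at 74.7 and 64.9 CPM against 149 and 151 CPM. Its mean was 121 CPM in siTARG1 and 151 CPM in RACK1-Mut (log2 0.32). In the second comparison 9 genes of the list were lower and 3 higher.

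Cytosolic ribosomal protein genes were lower in 44 of 79 and higher in 8 (65.8% called, median -0.23), none past 2-fold. RPL37A, for example, had 1545 and 1496 CPM in siControl and 833 and 928 CPM in RACK1-WT, and RPS2 had 8814 and 10481 CPM against 5941 and 6219 CPM. These genes have many processed pseudogenes, so their counts are uncertain. Mitochondrially encoded mRNAs were lower in 8 of 13 with none higher (61.5% called, median -0.49), although the siControl libraries differed among themselves: MT-CO2, a cytochrome oxidase subunit, had 383 and 671 CPM in siControl and 161 and 164 CPM in RACK1-WT. Nuclear genes of oxidative phosphorylation went the other way, with 29 of 66 higher and 7 lower (54.5% called, median 0.16), among them COX6C, a cytochrome oxidase subunit, at 59.7 and 65.6 CPM against 176 and 183 CPM, and UQCRC1, a complex III subunit, at 240 and 211 CPM against 464 and 477 CPM. Replication-dependent histone genes, of near-identical sequence, were lower in 29 of 48 and higher in 0 (60.4% called, median -0.34, H3C14 and H3C15 with the same values in all libraries), with a summed level of 8574 and 8572 CPM against 5856 and 7240 CPM, where the RACK1-WT libraries are apart. For these lists the share called was 54.5 to 65.8%, against 63.3% of all genes. By direction 31.9% of all genes were higher and 31.4% lower, so each of these lists leaned to 1 side and all genes did not. Translation factors (20 of 54 higher, 17 lower, 68.5% called) and mitochondrial ribosomal proteins (17 of 70 higher, 23 lower, 57.1% called, and 22 and 14 in the second comparison) had no common direction, but EEF1A2, the tissue-restricted form of elongation factor 1-alpha, had 1 and 1 reads in siControl and 233 and 279 reads in RACK1-WT, a ratio of 271 (exact 95% interval 74.6 to 2244, counting error only).

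Lysosomal genes were higher in 25 of 41 and lower in 6 (75.6% called, against 63.3% of all genes, median 0.30), and in 22 and 8 in RACK1-Mut against siTARG1. CTSB, the protease cathepsin B, had 335 and 319 CPM in siControl and 1204 and 1226 CPM in RACK1-WT (3.71-fold), GPNMB, a lysosomal membrane glycoprotein, had 7.90 and 7.03 CPM against 58.2 and 56.0 CPM, and TFEB and MITF, transcription factors of lysosome genes, were 7.34-fold and 3.89-fold higher. TFEB and MITF differed by 2.84 and 1.97 on the log2 scale here but by 0.48 and 0.87 in the second comparison, where siTARG1 had means of 4.42 and 6.57 CPM. Metallothioneins, the zinc-binding proteins of the MT1 and MT2 family, were lower in 7 of 7 tested, with a summed level of 201 and 216 CPM in siControl, 79.5 and 89.9 CPM in RACK1-WT, 249 and 247 CPM in siTARG1 and 83.5 and 88 CPM in RACK1-Mut. MT2A alone had 103 and 112 CPM against 41.4 and 49.1 CPM. The antioxidant list they were counted in (NRF2 targets and metallothioneins) had 10 of 33 higher and 15 lower (75.8% called), but 14 higher and 12 lower in the second comparison. GSTP1, a glutathione transferase, had 542 and 551 CPM against 218 and 233 CPM, and ABCC3, a conjugate exporter, 20.6 and 20.3 CPM against 5.75 and 6.98 CPM.

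Stress and metabolic lists were divided, and their shares called, 66.7 to 70.7%, were close to the 63.3% of all genes. Integrated stress response targets had 12 of 41 higher and 17 lower (70.7% called, median -0.01, and 11 and 20 in RACK1-Mut against siTARG1): GDF15, a stress cytokine, had 4.26 and 2.49 CPM against 27.9 and 30.3 CPM (8.63-fold higher), NUPR1, a stress-induced chromatin protein, was 13.9-fold higher and DDIT3, the factor CHOP, had 22.6 and 19.7 CPM against 47.3 and 48.3 CPM, but ATF4, the central factor, had 402 CPM in both siControl libraries and 320 and 324 CPM in RACK1-WT. Unfolded protein response chaperones had 14 of 27 higher and 4 lower (66.7% called, and 12 and 7 in the second comparison), with MANF at 31.1 and 33.1 CPM against 60.8 and 65.7 CPM. Cytosolic heat shock genes had 6 of 20 higher and 8 lower (70% called, and 4 and 9): HSP90AA1, the stress-induced HSP90, had 1291 and 1360 CPM against 778 and 762 CPM, and CRYAB, a small heat shock protein, was 18.7-fold higher. Sterol and fatty acid synthesis had 11 of 35 higher and 13 lower (68.6% called, median 0.02), but 20 higher and 4 lower (median 0.26) in RACK1-Mut against siTARG1, with SCD, the stearoyl desaturase, at 599 and 565 CPM against 1154 and 1278 CPM and MSMO1, a sterol oxidase, at 135 and 142 CPM against 65.0 and 58.0 CPM. Hypoxia and glycolysis genes had 17 of 36 higher and 7 lower (66.7% called, and 19 and 7). NDRG1, a hypoxia marker, was 1.97-fold higher.

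DNA replication genes had 21 of 49 higher and 8 lower (59.2% called, against 63.3% of all genes, median 0.08), but 14 higher and 23 lower (median -0.14) in RACK1-Mut against siTARG1. Mitosis genes had 17 of 50 higher and 9 lower (52% called, median 0.07), and 27 higher and 5 lower in that comparison. The largest were E2F2 (3.89-fold higher) and E2F1 (2.32-fold higher), factors of S phase entry, GINS1, a subunit of the replicative helicase (2.42-fold higher), and CDC25B, a phosphatase of mitotic entry (39.4 and 37.9 CPM against 114 and 128 CPM). In the list of p53 targets and cell cycle inhibitors 10 of 25 were higher and 10 lower (80% called, and 11 and 7 in the second comparison), with TP53INP1, a p53-induced nuclear protein, 6.54-fold higher and FAS, the death receptor, differing by -1.29 on the log2 scale. CCND1, cyclin D1, had 57.6 and 64 CPM against 125 and 122 CPM. Immediate early genes had 16 of 34 higher and 8 lower (70.6% called, and 18 and 5 in the second comparison), and YAP targets 12 of 22 higher and 6 lower (81.8% called, and 13 and 5), with AJUBA, a LIM protein of the pathway, at 23.5 and 19.1 CPM against 87.4 and 87.0 CPM. NF-kB and cytokine genes had 15 of 30 higher and 9 lower (80% called, and 14 and 7). IL18, a cytokine of epithelia, was 5.46-fold higher and CCL20, a chemokine, 6.08-fold lower.

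**Figure D4:**
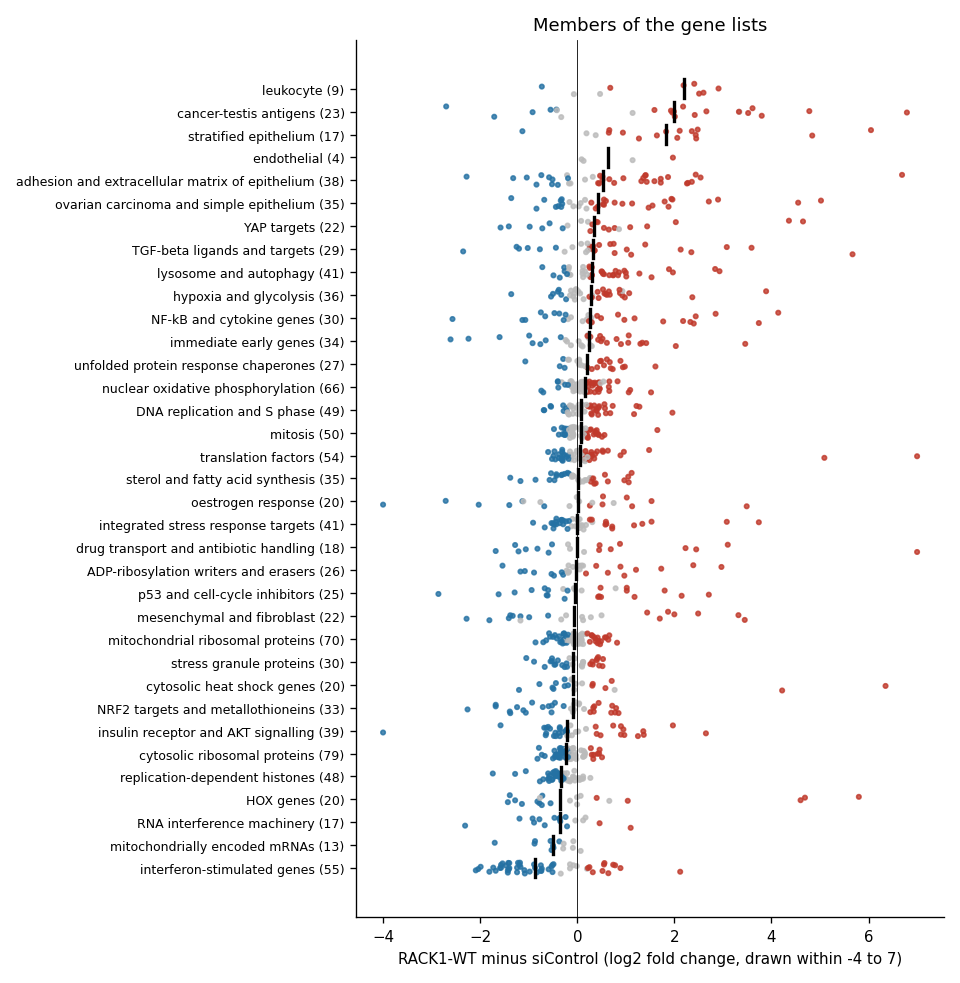
Log2 fold change of RACK1-WT minus siControl (x) for the tested members of 35 gene lists (y, number tested in brackets, ordered by median), with called members in red (higher) or blue (lower), others in grey, and the list median as a black bar. Interferon-stimulated genes have the lowest median, -0.87, and stratified epithelium genes one of the 3 highest, 1.83.

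Some genes had few or 0 reads in 1 state. With at most 3 reads over a group and at least 10 reads in each library of the other, 114 called rows of the count table were high in RACK1-WT and 26 in siControl, and 44 and 3 of them had 0 reads in the low group. Rows assigned to 1 gene were 110 of the 114 and 25 of the 26, and CSF2RA, a cytokine receptor, stood in 2 of the 114 with the same reads. Of the 114, 77 had at most 3 reads in siTARG1 as well, and of the 26, 12 had at most 3 reads in RACK1-Mut. HS3ST3A1, a heparan sulfate sulfotransferase, had 1 and 2 reads in siControl and 273 and 347 in RACK1-WT. LIPI, a lipase expressed in testis, had 49 and 35 reads in siControl and 0 in both RACK1-WT and both RACK1-Mut libraries, so that it was at least 26.5-fold lower. PGR, the progesterone receptor, had 19 reads in each siControl library and 0 in both RACK1-WT libraries (at least 12-fold lower), and other oestrogen-response genes with it were FOXA1, a pioneer factor (6.57-fold lower), and AREG, an EGF receptor ligand (11.3-fold higher), in a list of 20 with 7 higher and 6 lower (65% called, and 9 and 8 in the second comparison). ESR1, the oestrogen receptor itself, was under 0.3 CPM in all 4 libraries.

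Of 20 tested HOX genes 5 were higher and 9 lower (70% called, close to the 63.3% of all genes, median -0.35), with 7 and 7 (median 0.09) in RACK1-Mut against siTARG1. HOXD10, HOXD11 and HOXD13, posterior genes of 1 cluster on chromosome 2, were higher, with HOXD11 at 0.15 and 0.0327 CPM against 2.16 and 3.10 CPM and HOXD13 at 0.0502 and 0.164 CPM against 2.77 and 2.25 CPM. HOXD3, an anterior gene of the same cluster, had 1.43 and 1.5 CPM against 0.667 and 0.456 CPM. HOXB2, in another cluster, had 56.1 and 58.9 CPM against 20.2 and 22.4 CPM. Cancer-testis antigens are germline genes that tumours re-express and that share near-identical copies, and 23 of 43 passed the low-count filter. Of these 23, 14 were higher and 5 lower (82.6% called, against 63.3% of all genes, median 1.99). A gene can pass that filter through 1 group alone, so the split and the median depend in part on it. In RACK1-Mut against siTARG1 10 were higher and 9 lower (median 0.50). Among them MAGEA6 had 11.4 and 12.1 CPM against 64.8 and 61.2 CPM, and PAGE1 was 6.52-fold lower. MAGEC2 had 0.451 and 0.589 CPM in siControl and 6.17 and 5.67 CPM in RACK1-WT, but siTARG1 was at 9.39 CPM.

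Differences also ran along chromosomes. In windows of 50 neighbouring tested genes the median log2 fold change had an SD of 0.23 over 507 overlapping windows, against 0.04 for the difference between replicates of either group, and ranged from -0.63 to 1.26. Comparisons of groups use edgeR fold changes. Replicate and single-library values use log2 CPM with a constant added, which shrinks differences of low-level genes, so the measures are not on 1 scale. Past 0.3 in either direction lay 84 windows, 51 higher and 33 lower, and in RACK1-Mut against siTARG1 all 84 had the same sign and 62 were past 0.3. The highest window was on chromosome 20 around the centromere (chr20:17922241-30795546, GRCh37), where 43 of 50 genes were higher and 3 lower (31.9% of all genes were higher). Relative to the siControl mean its median was 1.08 and 1.16 in the RACK1-WT libraries, 1.09 and 1.1 in RACK1-Mut, and 0.10 and 0.07 in siTARG1. Functionally unrelated genes side by side took part: SEC23B, a vesicle coat protein (74.4 to 141 CPM by group mean), DTD1, a tRNA editing enzyme (39.5 to 129 CPM), XRN2, a nuclear exonuclease (164 to 272 CPM), CST3, the protease inhibitor cystatin C (34.6 to 142 CPM), APMAP, an adipocyte membrane protein (78.9 to 263 CPM), PYGB, glycogen phosphorylase (52.6 to 151 CPM), and the replication gene GINS1 (18.1 to 43.8 CPM). ID1, an inhibitor of differentiation factors, lay in the same window and was lower, at 182 and 90.0 CPM.

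Most of chromosome 3 was higher, with 488 of 776 genes higher and 96 lower (median 0.40, and 0.42 in the other comparison), and the window chr3:31699404-42267382 had 40 of 50 genes higher (median 0.65). The long arm of chromosome 8 held 2 adjoining windows with medians of 0.67 and 0.70 and 41 and 39 of 50 genes higher, which include COX6C. The short arm of chromosome 1 had a window at 0.74 (chr1:19665269-24867530), which includes E2F2. Chromosome 7 was lower, with 313 of 642 genes lower and 142 higher (median -0.28), most of all in the window chr7:92728826-99726118, where 39 of 50 were lower (median -0.63, and -0.57 and -0.64 in single RACK1-WT libraries against -0.11 and -0.12 in siTARG1). DNA copy number was not measured, and its part in these shifts was not tested. Several genes named above lie in such windows, and the gene lists were not adjusted for position.

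**Figure D5:**
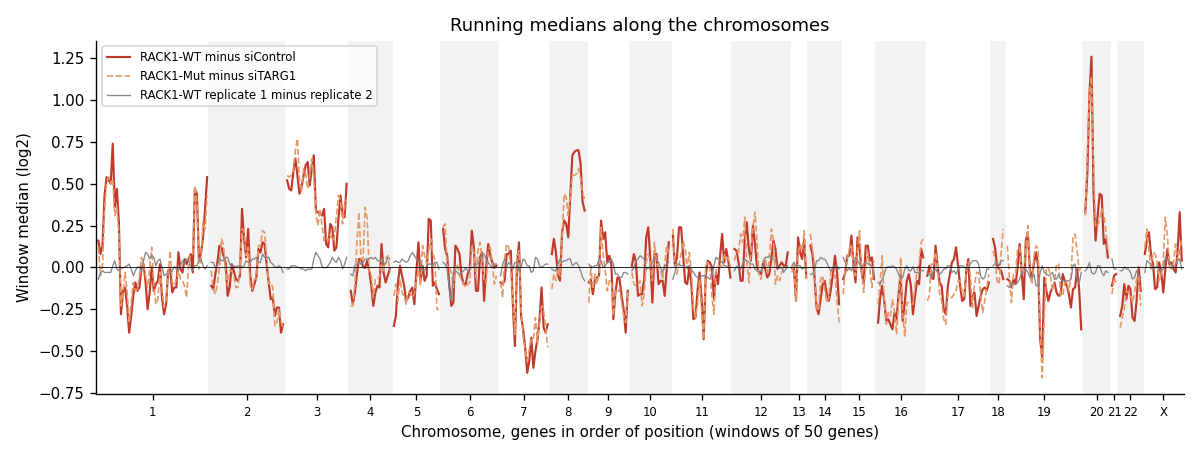
Median log2 fold change (y) in overlapping windows of 50 tested genes ordered along each chromosome (x), for RACK1-WT minus siControl (red), RACK1-Mut minus siTARG1 (dashed orange) and RACK1-WT replicate 1 minus replicate 2 (grey). The grey line uses log2 CPM with a constant added, and the other lines use edgeR fold changes. The peak of 1.26 on chromosome 20 and the raised chromosome 3 occur in both comparisons, while the replicate line stays within 0.20 of 0.

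Shorter windows of 25 genes picked out gene families encoded side by side. The lowest, chr5:140044453-140892542, had a median of -1.96 with 17 of 25 genes lower and 0 higher, and held the clustered protocadherins, neuronal adhesion proteins of similar sequence. Of 15 tested PCDHB genes 14 were lower and 0 higher, whereas of all genes 31.4% were lower and 31.9% higher. Their summed level was 16.2 and 16.5 CPM in siControl, 2.64 and 2.42 CPM in RACK1-WT, 14.9 and 16.3 CPM in siTARG1 and 2.59 and 2.63 CPM in RACK1-Mut. PCDHB2 alone had 6.07 and 5.30 CPM against 0.35 and 0.37 CPM. The next lowest, chr19:19756007-23941693, had a median of -0.94 and held KRAB-type zinc finger repressors, which are similar to one another: 16 of 24 ZNF genes there were lower and 0 higher, including ZNF91 (19.4 and 21.6 CPM against 8.2 and 9.06 CPM) and ZNF85 (2.08 and 2.91 CPM against 0.318 and 0.313 CPM). The highest window of this size, chr12:52416616-53626764 with a median of 1.77, covered the keratins described above. The protocadherin and zinc finger families were picked from the lowest windows after their values were seen.

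Besides RACK1, few genes differed in the balance of untranslated and coding reads. The 3′ UTR to coding ratio was called in 21 of 10081 genes (0.208%), 15 of them higher (0.149% of genes) and 6 lower (0.0595%), and the 5′ UTR ratio in 4 of 2579 (0.155%), 3 higher (0.116%) and 1 lower (0.0388%). The highest was HDAC9, a histone deacetylase, where 3′ UTR reads were 79 and 71 against 701 and 673 while coding reads were 1434 and 1160 against 1160 and 1262 (log2 3.28, adjusted p = 0.00011). TUBB3, the neuronal beta-tubulin, had 15 and 18 against 308 and 276 3′ UTR reads (log2 2.53), with coding reads at 808 and 764 against 2324 and 2369, and RIMS1, a synaptic vesicle protein, differed by 2.01. PLCG2, a phospholipase, had 91012 and 65143 against 41244 and 56777 3′ UTR reads but only 193 and 145 against 474 and 561 coding reads (log2 -2.29). In siControl its 3′ UTR reads were 47156 and 44988% of its coding reads, over regions of 4695 and 3798 bases. Reads with several matches were kept, and whether these 3′ UTR reads come from PLCG2 mRNA was not tested. RABGAP1L, a Rab regulator, differed by -1.88. For the 5′ UTR the called genes were RACK1 (log2 -2.09, adjusted p = 0.0059, or 0.068 without RACK1-WT replicate 1), MAP3K13, a stress kinase (2.01), SLC7A8, an amino acid transporter (2.26), and CENPT, a kinetochore protein, with 7 and 3 against 128 and 118 5′ UTR reads (4.19). Without RACK1-WT replicate 2, 2 genes were called for the 3′ UTR ratio and 14 for the 5′ UTR ratio. Without RACK1-WT replicate 1, 3 and 2 were called. For AKT1 the 3′ UTR and 5′ UTR ratios differed by 0.07 and 0.16 (adjusted p = 0.86 and 0.82). A gene was tested where both regions had a mean of at least 50 reads in siControl or in RACK1-WT. TUBB3, RIMS1, SLC7A8 and CENPT met this only through RACK1-WT. Their calls, and the split of calls by direction, depend in part on that filter.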

How the data were processed

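Total RNA of the lysates was depleted of rRNA and sequenced as stranded libraries. The authors removed rRNA reads with Bowtie 1.1.2, aligned the rest with TopHat 2.1.1 to GRCh37 with Gencode models, and counted alignments of 25 to 51 bases per row with Plastid. The deposited values are estimated counts per exon, coding sequence and UTR, not whole and not normalized, and the authors also deposited RPKM, which was not tested. DESeq2 is named in the submitters' processing notes. Reads with several matches were kept, so counts of paralogs are uncertain.

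Rows name transcripts, and 94.7% of 36595 transcripts matched Gencode on GRCh37, which gave 19329 rows of 1 gene. Each tested row is counted as a gene, including 175 without a symbol and 12 that repeat the values of another row. Exon counts were rounded and tested with edgeR 4.0.16 (R 4.3.3, quasi-likelihood, TMM, filterByExpr) over all 8 libraries as 4 group means with 4 residual degrees of freedom, and p-values were adjusted by Benjamini-Hochberg over 14024 genes with a threshold of 0.05. Standard errors were derived from the fold change and the F statistic (absolute value over square root). UTR to coding ratios (log2, 0.5 added) were tested with limma 3.58.1. Both regions needed a mean of at least 50 reads in siControl or in RACK1-WT. Lists were described by counts and medians of the tested members. Summed levels of lists are over all members with a row, tested or not. The low-count filter keeps a gene that is expressed in 1 group only, so list members near absent in siControl can enter through another group. On simulated counts for RACK1-WT against siControl with 13826 genes, of which 200 were changed, 87% of 2-fold and 72.4% of 1.5-fold changes were recovered and 6.51% of calls were false. The simulation changed a far smaller share of genes than the 63.3% called in the data, so these rates need not hold for the data. Exact 95% intervals cover counting error only.

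The members and the gene lists were chosen with earlier results of these data known. Named genes are those the study names, the 10 highest and 10 lowest with separate libraries and at least 10 CPM in the higher group, up to 4 called members per list with at least 1 CPM, members that define a list, and the 3 highest and 3 lowest of each ratio test. VCAN, HS3ST3A1, LIPI, the genes named in windows, the keratin, kallikrein, metallothionein, protocadherin and zinc finger families, and other list members were chosen after their values were seen. Alternatives were DESeq2 1.42.0, 2 other normalizations, 2 other filters, only the 4 libraries, a replicate block, rows summed by symbol, coding reads, and leaving out each library. Some genes that met these rules are not reported here, and ribosome profiling libraries were not analysed here.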

Additional observations from a re-analysis of the deposited data

Results flagged for a closer look

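For the genes below, from the 10 highest and 10 lowest, the difference between RACK1-WT and siControl was itself different from that between RACK1-Mut and siTARG1 by edgeR's quasi-likelihood test of the difference (adjusted p below 0.05), although the direction was the same in both. Among genes lower in the RACK1 lines, the first difference minus the second was -2.24 for SULT1E1, -2.61 for HHIP, -1.20 for EPHA3, -1.58 for ADGRB3, -3.07 for WNT2B and -0.77 for SOX11 on the log2 scale, and 0.65 for IGFBP5. Among genes higher in the RACK1 lines it was 2.20 for PTGS1, 4.18 for L1CAM, 3.49 for KRT4, 3.31 for STC1 and 4.82 for NRN1, where the values for STC1 and NRN1 depend on the prior count because siControl had at most 1 read in a library. The comparisons differ in the siRNA as well as in the RACK1 copy. With 2 libraries in each group, single libraries were not screened as outliers.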

How the results depend on the processing

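The count of genes called between RACK1-WT and siControl was 8033 to 9179 under the other test, normalizations, filters, library sets and count types, 8628 without the genes of the 6 windows of largest shift (added after the data were seen), and 7460 to 7898 when single libraries were left out. Past 2-fold it was 2389 to 2482 without single libraries. Restricted to at least 10 CPM in the higher group, an alternative added after the data were seen, it was 1054, with 695 higher and 359 lower. The 3′ UTR ratio test called 33 genes with a pseudocount of 5, 57 with at least 200 reads and 7 with only the 4 libraries, and 2 to 13 without single libraries. For the 5′ UTR ratio these counts were 12 with a pseudocount of 5, 2 with at least 200 reads and 2 to 14 without single libraries. The cause was not tested. The highest and lowest window medians were 1.77 and -1.96 with 25 genes and 0.81 and -0.59 with 100 genes, since longer windows average more genes.

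The replicate numbers did not pair the libraries: deviations of same-numbered libraries from their group means correlated at -0.036. With the replicate block 8908 genes were called in RACK1-WT against siControl and 10 in the 3′ UTR ratio test. Of 2026 values of 158 named genes under alternatives, 2014 kept direction and side of the threshold, 11 lost significance and 1 gained it, and 0 reversed. The lost calls are AKT1, G3BP1, EIF3B, CD8A and LIN28B without single libraries, and the call gained is RPS6 with no low-count filter.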
